A study of Mus musculus with 138 samples.

Results

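Hhip-expressing cells of the mouse coronal suture at E18.5 were taken from the 2 coronal single-cell RNA-seq libraries of that age. After barcodes with 800 or fewer detected genes were dropped, a cell was counted as Hhip-expressing when it held at least 2 Hhip UMIs (unique molecular identifiers, each counted once per captured transcript) and at least 1.5 Hhip UMIs per 10000 UMIs of the cell. Of 4249 kept cells, 240 met this rule, with 136 of 2625 in library 1 and 104 of 1624 in library 2. The shares were 5.18% (95% Wilson interval 4.40 to 6.10) and 6.40% (5.31 to 7.70), and these and all later intervals cover counting error only. The cells were chosen by their measured Hhip counts, so its level in them is a description, and it was left out of every clustering and of every test between cells.

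The study profiled cranial sutures of wild type C57BL/6J mice at 2 embryonic ages, E16.5 and E18.5, by single-cell RNA-seq of the coronal suture and by bulk RNA-seq of regions cut out by laser capture microdissection. Each single-cell library at E18.5 held pooled strips of coronal suture with suture mesenchyme (SM) and the osteogenic fronts (OFs) of the frontal and parietal bones, from embryos of both sexes, and the libraries were made on separate days. The 2 coronal libraries at E16.5 came from the same strain, were made on 1 day and used a later kit. They were run on another sequencer and had no red blood cell lysis, and the paper identified hypodermis cells at E16.5 alone. Age and these steps thus cannot be told apart. The bulk libraries used here were the 5 of SM, 5 of the frontal OF and 5 of the parietal OF of the E18.5 coronal suture. No embryo in any of these groups carried a mutation or received a treatment, and a pool hides the differences between embryos.

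Hhip encodes Hedgehog-interacting protein, which sits at the cell surface or is shed from it, binds Hedgehog ligands and keeps them from the receptor Ptch1. In textbook accounts Hhip, Ptch1 and Gli1 are all turned on by Hedgehog signalling, so that Hhip acts as a feedback inhibitor. In bone the main ligand is Indian hedgehog (Ihh), made by cells of the osteoblast lineage, and the suture holds non-mineralized mesenchyme between advancing bone fronts. In the mm10 annotation Hhip (ENSMUSG00000064325.4) lies on the minus strand at chr8:79965851-80058006.

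The libraries differed in depth and in how their cells grouped. Median depth was 16345 UMIs for Hhip-expressing and 18392 for other cells in library 1, and 9779.5 against 7049 in library 2. The median mitochondrial share was 2.19% against 2.33% in library 1 and 5.42% against 7.5% in library 2. In the clustering of all kept cells, 1 cluster held 624 cells of library 1 and 6 of library 2, and another held 123 cells of library 1 alone, so levels are given for each library throughout. The libraries shared 5 barcodes, and 0 of these belonged to Hhip-expressing cells. Of the Hhip-expressing cells, 8 in library 1 and 6 in library 2 ranked among the 5% of cells that most resembled simulated doublets.

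The median Hhip-expressing cell held 4 Hhip UMIs in library 1 and 3 in library 2, with highest counts of 17 and 30. The other kept cells were not free of Hhip, with highest counts of 21 and 10. They held 1068 of the 1764 Hhip UMIs of library 1 and 313 of the 753 of library 2. The rate had a median of 2.20 per 10000 UMIs in library 1 and 3.34 in library 2, with highest values of 11.96 and 15.42. The cut fell in a continuum. The lowest rates inside it were 1.517 and 1.520 in library 1 and 1.502 and 1.505 in library 2, and the highest rates just outside were 1.493 and 1.475, and 1.476 and 1.449. A further 225 cells of library 1 and 33 of library 2 held at least 2 Hhip UMIs below the rate, and 365 and 216 cells held a single UMI. Of these single-UMI cells, 0 and 88 were over the rate, so the UMI minimum left out cells over the rate in library 2 alone. At least 1 Hhip UMI was held by 726 of 2625 and 353 of 1624 cells, so the order of the libraries' shares depended on the rule.

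Nearly all Hhip-expressing cells fell in clusters of the suture class. Clusters were named only from marker lists. The suture class was every cluster not named after blood, vessel, cartilage, nerve, skin or muscle classes, so unnamed clusters stayed in it. Among these, a cluster of 689 cells led by Nppc, Col14a1 and Atp1b1 held 3 Hhip-expressing cells. In a finer clustering (resolution 1.2) a cluster of 481 cells led by Nppc took the name dura mater and also stayed in. Suture-class clusters held 238 of the 240 Hhip-expressing cells and 3283 other cells. No Hhip-expressing cell was found among 248 macrophage-like cells, which allows a share of up to 1.21%, among 125 osteoclast-like cells (up to 2.40%) or among 134 cartilage-like cells (up to 2.24%). The endothelial-like cluster held 1 of 141 cells and the erythroid-like cluster 1 of 80. As a check on free RNA, each cell was thinned to 5000 UMIs, which left out 16 Hhip-expressing, 395 other suture-class and 11 macrophage- or osteoclast-like cells, all of library 2. After thinning, 0.346% of macrophage- and osteoclast-like cells in library 1 and 0% in library 2 still showed Hhip, against 8.64% and 11.8% of the other suture-class cells. Before thinning these shares were 3.81% and 2.38% against 28.1% and 18.498%.

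When the suture-class cells were clustered again, the Hhip-expressing cells were spread unevenly over 8 clusters. A single cluster led by Ptx4, Dpt, Cav1, Tppp3, Creb5 and Erg (cluster 6), which could not be named from the marker lists, held 97 of them. They were 53 of its 153 cells in library 1 (34.6%, 27.6 to 42.5) and 44 of its 126 cells in library 2 (34.9%, 27.2 to 43.6). The proliferating cluster (cluster 4) held 25 of 202 cells in library 1 (12.4%) and 26 of 154 in library 2 (16.9%). A cluster led by Mmp13 and Pdzrn4 (cluster 0) held 28 of 540 (5.19%) and 20 of 412 (4.85%). Shares were 2.89% and 3.64% in the ectocranial mesenchyme-like cluster, which is led by Igfbp3 and Sfrp2. In the osteoblast-like cluster led by Dmp1 and Sost they were 7.02% (4 of 57 cells) and 1.63% (6 of 367). A cluster led by Gpha2 and Scara5, which took the name cartilage-like from the marker lists with Matn4 and Chad among its leading genes (cluster 3), held 7 of 290 cells (2.41%) and 1 of 115 (0.870%). The cluster led by Mfap5 and Bace2 held 3 of 291 cells in library 1 and 0 of 56 in library 2, which allows up to 5.36%. The ranking of the 2 richest clusters was the same in both libraries, and a majority of the Hhip-expressing cells lay outside cluster 6.

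**Figure D1:**
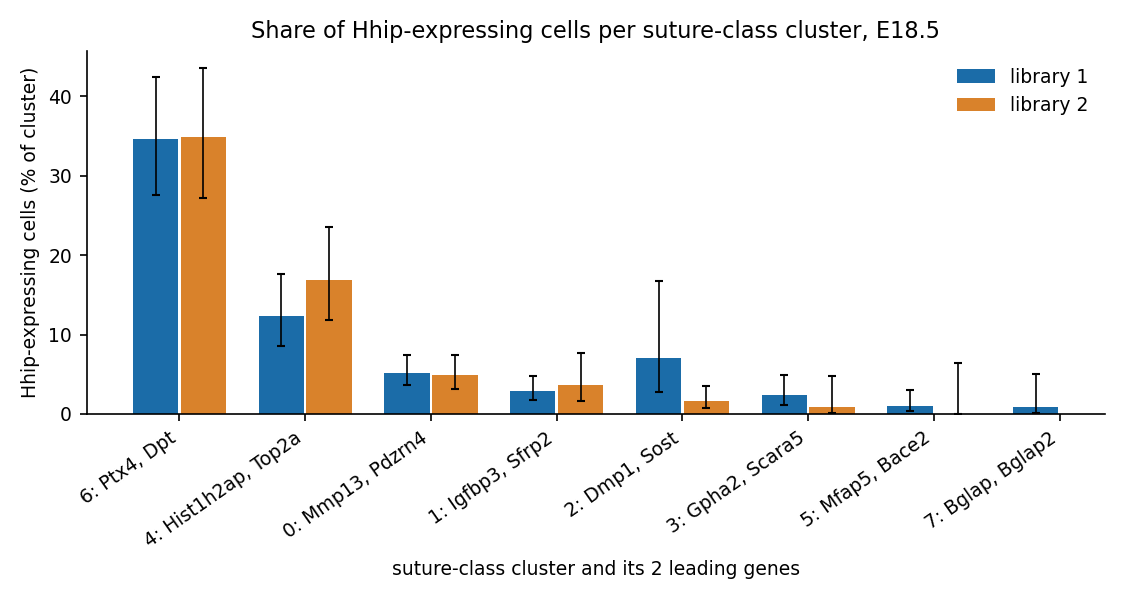
Share of Hhip-expressing cells (percent of the cells of the cluster, y axis) in each suture-class cluster, named by number and 2 leading genes (x axis), for library 1 and library 2, with 95% Wilson intervals as error bars. Cluster 6 stood highest in both libraries, at 34.6% and 34.9%, followed by the proliferating cluster 4, and cluster 7 held cells of library 1 alone.

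To find the genes that go with Hhip, UMIs were summed per library over Hhip-expressing cells and over all other kept cells and tested with edgeR, with the library as a block. Levels are CPM, the UMIs of a gene scaled to a common total of each sum, and differences are fitted log2 differences, Hhip-expressing less other cells. Of 9412 genes tested, 684 were higher (7.27%) and 1064 lower (11.3%) in Hhip-expressing cells at an adjusted p under 0.05, and 7.27% and 11.0% when the same sign in both libraries was also required. The test rests on 2 libraries and 1 residual degree of freedom, and without the library block the counts fell to 14 and 64.

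The 20 genes with the largest rises were Ptx4, Stxbp6, Mfap3l, Dpt, Plppr4, Tppp3, Adgrg2, Hspb8, Pthlh, Erg, Sapcd2, Ccdc91, Iqgap3, Ecm2, Stmn4, Eva1a, Baalc, Batf3, Prnp and Rnf165. Ptx4, a member of the pentraxin family, was at 104 CPM in Hhip-expressing cells against 7.18 in other cells of library 1, and at 54.4 against 11.4 in library 2, a difference of 3.14 (SE 0.173, adjusted p = 5.31e-70). Stxbp6, which encodes a SNARE-binding protein, was at 31.3 against 2.66 and at 19.9 against 4.33 CPM, a difference of 2.98 (SE 0.262). In both genes the difference was larger in library 1 and pointed the same way in library 2.

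Dpt, which encodes the extracellular matrix protein dermatopontin, was at 91.5 against 14.2 CPM in library 1 and 57.4 against 21.6 in library 2. Tppp3, a tubulin-binding protein also known from tendon sheath cells, was at 817 against 158 and 672 against 189 CPM. Erg, an ETS family transcription factor, was at 63.3 against 17.7 and 70.5 against 18.2 CPM. Pthlh, the parathyroid hormone-related protein, was at 49.95 against 14.7 and 50.6 against 9.45 CPM. Fitted differences were 2.08 for Dpt, 2.01 for Tppp3, 1.79 for Erg and 1.92 for Pthlh, and the 20 genes lay between 1.42 (Prnp and Rnf165) and 3.14. The 20 genes were chosen in these same cells, so a score of each cell over them is a description, and the Hhip-expressing cells of library 2 were deeper than its other suture-class cells (9779.5 against 6553.5 UMIs). The median Hhip-expressing cell held UMIs of 7 in library 1 and 5 in library 2, against 3 and 2 in other suture-class cells. No UMI of any of the 20 was found in 3 Hhip-expressing cells of library 1 (2.21%) and 6 of library 2 (5.77%). The same held for 111 other suture-class cells of library 1 (5.58%) and 261 of library 2 (20.2%).

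The 8 genes with the largest falls, Lrrc25, Skap2, Fcgr2b, Pld4, Adgre1, Lcp1, Cd14 and Pstpip1, are genes of macrophages and other leukocytes. Hhip-expressing cells held 0 to 3 UMIs of each per library, against 80 to 2120 in the other cells, so no fold is given. All 13 macrophage markers and all 9 tested endothelial markers were lower, and the summed macrophage markers were at 197 against 2061 CPM in library 1 and 178 against 962 in library 2. The set of other cells held those classes and the Hhip-expressing cells nearly did not, so the comparison below is restricted to the suture class. There the same sum was 197 against 269 and 179 against 190 CPM.

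Against the other suture-class cells, 573 of 9236 genes were higher (6.2%) and 804 lower (8.71%) in Hhip-expressing cells, and 6.18% and 8.39% with the same sign in both libraries. Without the block no gene passed at an adjusted p under 0.05 in edgeR, with 360 higher and 519 lower at an unadjusted p under 0.05, while DESeq2 with the block gave 162 and 241. The 15 largest rises were Stxbp6, Ptx4, Col15a1, Mfap3l, Hspb8, Plppr4, Dpt, Tppp3, Cav1, Sapcd2, Adgrg2, Erg, Iqgap3, Pthlh and Pdlim1. Of these, Col15a1, Cav1 and Pdlim1 were not among the 20 above. Col15a1, a collagen of basement membrane zones, was at 36.2 against 6.71 CPM in library 1 and 58.1 against 13.6 in library 2, a difference of 2.15 (SE 0.190). Cav1, the coat protein of caveolae, was at 86.9 against 16.9 and 90.6 against 35.7 CPM, a difference of 1.78 (SE 0.15). Both genes are also known from endothelial cells, and the summed endothelial markers were at 31.9 against 34.4 CPM in library 1 and 46.4 against 46.8 in library 2 within the suture class.

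The 15 largest falls were Epyc, Wbscr17, Col14a1, Limch1, Vdr, Agtr2, Tox, Gm20186, Nppc, Fam198a, Bglap, Itih5, Bglap2, Phex and Wfikkn2. Of these, Nppc, Col14a1 and Itih5 are leading genes of the unnamed cluster of 689 cells that stayed in the suture class, and its part in their falls was not tested. Col14a1, a fibril-associated collagen, was at 27.7 against 217 CPM in library 1 and 9.29 against 99.8 in library 2, a difference of -3.20 (SE 0.174). Nppc, the C-type natriuretic peptide precursor, was at 20.005 against 102 and 3.87 against 32.9 CPM. Vdr, the vitamin D receptor, was at 1.54 against 9.98 and 3.10 against 23.2 CPM. Phex, an endopeptidase of late osteoblasts and osteocytes that bears on phosphate balance, was at 5.00 against 18.48 and 9.29 against 56.2 CPM. Bglap, which encodes osteocalcin, was at 82.3 against 385 and 149 against 789 CPM, and since Bglap and Bglap2 are near-identical copies the split between them is uncertain. For Epyc and Wbscr17, at 1 to 3 UMIs per library in the Hhip-expressing cells, only the direction is given.

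**Figure D2:**
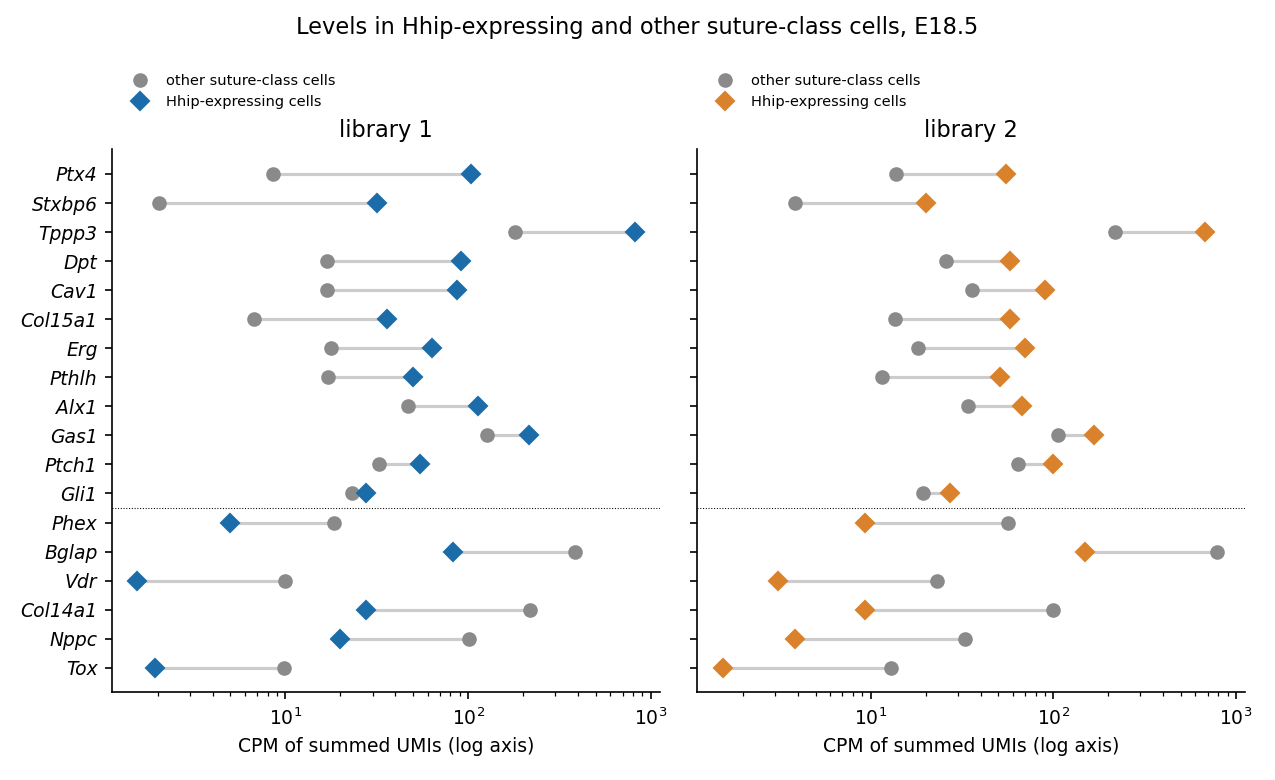
Levels (CPM of summed UMIs, log x axis) of 18 genes in Hhip-expressing cells (diamonds) and other suture-class cells (circles), with library 1 and library 2 in separate panels and a dotted line above the genes that were lower. Ptx4 stood at 103 against 8.52 CPM in library 1 and at 55.0 against 13.8 in library 2, and Gli1, which did not pass the test, showed the smallest gaps of the hedgehog genes plotted.

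Members of the hedgehog pathway were examined by role. Among ligands and proteins of ligand release, Shh had 0 UMIs in Hhip-expressing and in other cells of both libraries, and Dhh had 1 and 0 UMIs in Hhip-expressing cells. Ihh was lower in Hhip-expressing than in other suture-class cells, at 1.54 against 4.38 CPM in library 1 and 5.42 against 13.8 in library 2 (difference -1.54, SE 0.435, adjusted p = 0.00481), which rests on 4 and 7 UMIs in the Hhip-expressing cells. Scube3, which helps to release lipid-modified ligands, was also lower (difference -1.21, SE 0.354, adjusted p = 0.00746). Disp1 (-0.84), Scube2 (-0.28) and Hhat (0.02) did not pass.

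Of the receptors and co-receptors, 2 of 5 tested were higher, against 6.2% of all genes. Ptch1, the ligand receptor and a target gene, was at 54.6 against 32.5 CPM in library 1 and 99.8 against 64.3 in library 2, a difference of 0.57 (SE 0.143, adjusted p = 0.00122). Its call did not pass with DESeq2 (adjusted p = 0.159), without the proliferating cluster (0.134) or without outlying cells (0.0533). Gas1, a co-receptor that promotes ligand reception, was at 215 against 126 and 166 against 106 CPM, a difference of 0.59 (SE 0.125, adjusted p = 6.00e-05). When every cell with at least 1 Hhip UMI was counted in, Gas1 turned to -0.11. Boc, another co-receptor, was at 34.6 against 28.2 and 55.0 against 30.0 CPM with an adjusted p of 0.0824, and against all other kept cells it passed (difference 0.66, adjusted p = 0.00123). Smo (0.11) and Cdon (0.07) did not pass.

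The transcriptional effectors of the pathway did not pass. Gli1, the pathway's common readout, was at 27.7 against 23.2 CPM in library 1 and 27.1 against 19.5 in library 2, a difference of 0.21 (SE 0.196, adjusted p = 0.551). Against all other kept cells the Gli1 difference was 0.48 (SE 0.193, adjusted p = 0.0699). Against the other suture-class cells the values were -0.19 for Gli2, 0.03 for Gli3 and -0.87 for the inhibitor Sufu (adjusted p = 0.0527). Among target genes other than Ptch1 and Gli1, Bcl2 (0.28), Ccnd1 (-0.26) and Ccnd2 (-0.01) did not pass. Bcl2 was higher (0.45) and Ccnd1 lower (-0.69) against all other kept cells.

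Genes of suture mesenchyme did not all go the same way. Of 20 tested genes of the suture mesenchyme and progenitor list, 5 were higher and 3 lower than in other suture-class cells. Over all genes tested 6.2% were higher and 8.71% lower, so the count of lower genes was near the general share. The median difference was 0.11 against -0.01 over all genes tested. Alx1, a homeobox gene of craniofacial mesenchyme, was at 113 against 47.0 CPM in library 1 and 67.3 against 34.0 in library 2 (difference 1.03). Lepr, the leptin receptor that marks stromal progenitors, was at 25.0 against 21.2 and 65.0 against 18.51 CPM, so its rise came mainly from library 2. The homeobox genes Prrx2 (0.48) and Msx1 (0.39) and the signal Pthlh (1.66) were the other rises, and Zic1 (-0.54), Pdgfra (-0.45) and Ctsk (-0.44) were lower. Twist1 (0.13), Prrx1 (0.09) and the rest of this list did not pass. When every cell with at least 1 Hhip UMI was counted in, Alx1 turned to -0.082 and Pthlh no longer passed.

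Of 10 mesenchyme genes that the study chose on these samples, which are therefore no independent evidence of direction, 6 were higher (Erg, Adamts8, Cd34, Sox6, Angptl2 and Itgb5) and 2 lower (Igfbp3 and Col8a1). The shares over all genes were 6.2% and 8.71%. Cd34, a sialomucin found on fibroblasts as well as vessels, was at 220 against 98.9 CPM in library 1 and 157 against 80.2 in library 2. Adamts8, a secreted protease, was at 23.1 against 7.13 and 17.8 against 11.5 CPM. Igfbp3, which binds insulin-like growth factors, was at 328 against 923 and 89.0 against 425 CPM. Igfbp3 and Col8a1 are also on the ectocranial mesenchyme list, all 4 tested genes of which were lower.

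Bone matrix and mineralization genes were lower as a group. Of 19 tested, 18 were lower and 1 higher, against 8.71% and 6.2% of all genes. The median difference was -1.28, and with DESeq2 12 were lower. In the osteoblast-like clusters 10 of 424 cells and 1 of 108 were Hhip-expressing, so nearly all of those cells were among the others. The summed list was at 27391 against 49890 CPM in library 1 and 38344 against 97119 in library 2. Within cluster 0 it was at 22623 against 28197 and 35013 against 43872 CPM, a smaller gap. The part of cluster make-up in these falls was not tested. Spp1, which encodes osteopontin, was at 1014 against 2236 CPM in library 1 and 1287 against 6350.4 in library 2 (difference -1.85). Dmp1, a matrix protein of osteocytes, was at 27.3 against 43.9 and 25.5 against 185 CPM, a gap far wider in library 2. Enpp1, which makes the mineralization inhibitor pyrophosphate, was the gene that was higher, at 65.4 against 36.8 and 87.5 against 49.9 CPM (difference 0.69). After thinning to 5000 UMIs, Ibsp was found in 86.0% of Hhip-expressing cells and in 85.5% of macrophage- and osteoclast-like cells of library 1, and in 89.8% and 98.6% in library 2. Before thinning these shares were 99.3% and 99.7%, and 98.1% and 100%, so close to their ceiling that they give no order between the cell types.

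Osteoblast transcription factors moved less. Mef2c (-1.07), Fosl2 (-0.44) and Runx2 (-0.40) were lower and Dlx5 (0.37) was higher, while Sp7, the osteoblast determinant, was at 80.4 against 72.4 CPM in library 1 and 89.8 against 142 in library 2 and did not pass (adjusted p = 0.0578). With every cell of at least 1 Hhip UMI counted in, Runx2 stood at 0.0087 and Fosl2 at 0.0052. For cartilage and the lists that follow, the shares over all genes were 6.2% higher and 8.71% lower. Of 17 tested cartilage genes 13 were lower (5 with DESeq2), and their sum over the list was 577 against 1132 CPM in library 1 and 620 against 1454 in library 2. Of 10 small leucine-rich proteoglycans 8 were lower, led by Epyc and by Dcn (decorin, -1.81), and 1, Aspn (asporin, 0.46), was higher. Of 17 collagens 11 were lower, and Col15a1 was the 1 that was higher. Of 11 dura mater genes 8 were lower, led by Nppc, Cxcl12 and Crabp2, and Nov was higher (0.62). The other suture-class cells held the cells that the finer clustering named dura mater, and their part in these falls was not tested.

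Signalling lists are read against all tested genes, of which 6.2% were higher and 8.71% lower. In the Wnt pathway 2 of 25 were higher, the feedback inhibitor Nkd1 (1.06) and the agonist Rspo1 (0.80), and 12 were lower. The lower genes were the inhibitors Sost (-2.29), Dkk1 (-1.66), Sfrp2 (-1.22), Frzb, Sfrp1 and Wif1, and also genes that carry the signal. These were the ligands Wnt2 and Wnt5a, the agonist Rspo3, the co-receptors Lrp5 and Lrp6 and the transcription factor Tcf7. Nkd1 was at 89.6 against 42.3 CPM in library 1 and 90.6 against 36.0 in library 2. In the BMP and TGF-beta pathways 3 of 26 were higher, namely Inhba (0.84), the BMP antagonist Nog (0.59) and Tgfb2 (0.46). Another 11 were lower, among them Ltbp2 (-2.28), Bmp3 (-1.30), Bmp4 (-0.96), the BMP antagonist Chrd and Bmper. Of 15 FGF pathway genes 4 were lower, led by the feedback inhibitor Spry2 (-1.76). Of 6 Notch pathway genes the ligand Jag1 was higher (0.54) and 4 were lower, led by Dlk1 (-1.88). Notch3, which is also on the pericyte list, was lower (-1.22) but turned to 0.22 with 1 Hhip UMI as the minimum. In the tendon and ligament list Tnn (tenascin-N) was higher, at 821 against 329 and 1329.8 against 656 CPM, and Fmod and Tnmd were lower.

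The smooth muscle genes Tagln (0.71) and Acta2 (0.36) were higher, and the pericyte genes Notch3 (-1.22) and Kcnj8 were lower, with Myh11 at 0 UMIs in Hhip-expressing cells of both libraries. Creb5 (1.36) and Cd34 (0.95) of the hypodermis and fascia list were higher, while its marker Clec3b was at 0 UMIs. Of 9 glia and neuron markers 4 had UMIs in the Hhip-expressing cells of each library, with Sox10 at 0, and their sum was at 12.3 against 30.2 CPM in library 1 and 15.5 against 19.1 in library 2. The summed muscle markers were at 1.92 against 5.36 and 3.87 against 3.33 CPM. Krt5, Krt14 and Myod1 were at 0 UMIs in Hhip-expressing and in all other cells, so they separate nothing. Krt1, a keratin of the upper epidermis, was higher, at 14.2 against 4.61 CPM in library 1 and 10.1 against 3.25 in library 2 (difference 1.51, SE 0.322), which rests on 37 and 13 UMIs in the Hhip-expressing cells, and Krt10 (-0.24) did not pass. The summed epidermis list was at 34.6 against 34.9 CPM in library 1 and 32.5 against 27.6 in library 2, with 4 and 3 of its 8 genes at 1 or more UMIs in the Hhip-expressing cells. The part of epidermal RNA in these values was not tested.

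Proliferation genes were higher. Of 34 tested, 31 were higher than in other suture-class cells, against 6.2% of all genes. Their median difference was 1.00, and with DESeq2 18 were higher. Top2a, the DNA topoisomerase of dividing cells, was at 89.3 against 40.1 CPM in library 1 and 160 against 77.1 in library 2, and Mki67 was at 39.2 against 18.3 and 74.3 against 25.4. The proliferating cluster held 18.52% of suture-class Hhip-expressing cells against 8.89% of the other suture-class cells in library 1, and 25.2% against 9.91% in library 2. That cluster is defined by these same genes, so that taking it out lowers them by construction and leaves fewer of them to test. Without it on either side, 2 of 20 tested proliferation genes were higher, Top2a was at -0.49, and the count of all genes that were higher fell from 573 to 339. Bone matrix genes were still lower without it, at 17 of 19 tested, and Ptx4, Dpt, Tppp3, Erg and Pthlh kept their calls.

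**Figure D3:**
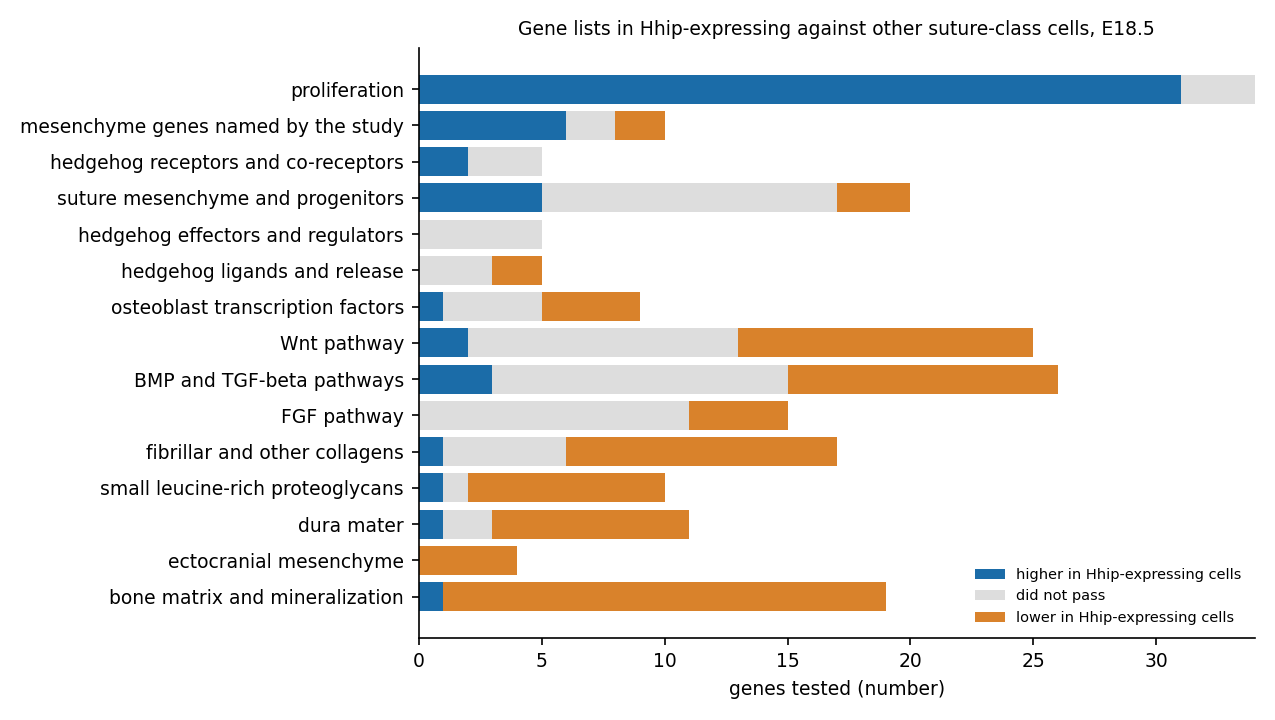
Number of tested genes (x axis) of 15 gene lists (y axis) that were higher, did not pass or were lower in Hhip-expressing than in other suture-class cells of E18.5, by edgeR at an adjusted p under 0.05. Proliferation genes were mostly higher (31 of 34) and bone matrix and mineralization genes mostly lower (18 of 19), against 6.2% and 8.71% of all genes.

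Levels were then compared within clusters, as a description with no test, since the same genes had shaped the clusters. In cluster 6 Tppp3 was at 1321 CPM in Hhip-expressing cells against 692 in the rest of the cluster in library 1, and at 986 against 552 in library 2. Pthlh was at 86.7 against 41.1 and 105 against 42.5 CPM, and Alx1 at 192 against 103 and 114 against 56.7 CPM. Gas1 was at 366 against 190 and 281 against 173 CPM. These genes were higher in the Hhip-expressing cells of that cluster in both libraries, whereas Dpt (160 against 146, and 83.7 against 138 CPM) and Ptch1 (46.7 against 28.7, and 51.2 against 56.7 CPM) differed in sign between libraries. Ecm2 was at 63.3 against 64.2 and 62.8 against 66.7 CPM.

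In the proliferating cluster Ptx4 was at 86.4 against 16.1 CPM in library 1 and 39.8 against 23.0 in library 2, and Gas1 at 237 against 78.9 and 135 against 81.8 CPM. Ptch1 was at 67.7 against 39.2 and 139 against 65.8 CPM there, and Gli1 at 44.0 against 26.0 and 39.8 against 20.5 CPM, each resting on 20 to 70 UMIs in the Hhip-expressing cells. In cluster 0 Ptx4 rested on 2 UMIs per library in Hhip-expressing cells (3.58 against 4.21 CPM, and 11.8 against 8.84), and Gas1 was at 59.1 against 77.4 and 76.7 against 83.9 CPM. Ptch1 was at 55.6 against 34.1 and 82.6 against 65.0 CPM in that cluster. Gli1 differed in sign between libraries there, at 12.5 against 20.8 CPM in library 1 and 29.5 against 20.1 in library 2, on 7 and 5 UMIs in the Hhip-expressing cells, and in cluster 6 it was at 28.9 against 24.8 and 9.30 against 25.5 CPM. Ptx4 was thus higher in the Hhip-expressing cells of clusters 6 and 4 in both libraries, and in cluster 0 it was too sparse to read. Differences between clusters were not tested.

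**Figure D4:**
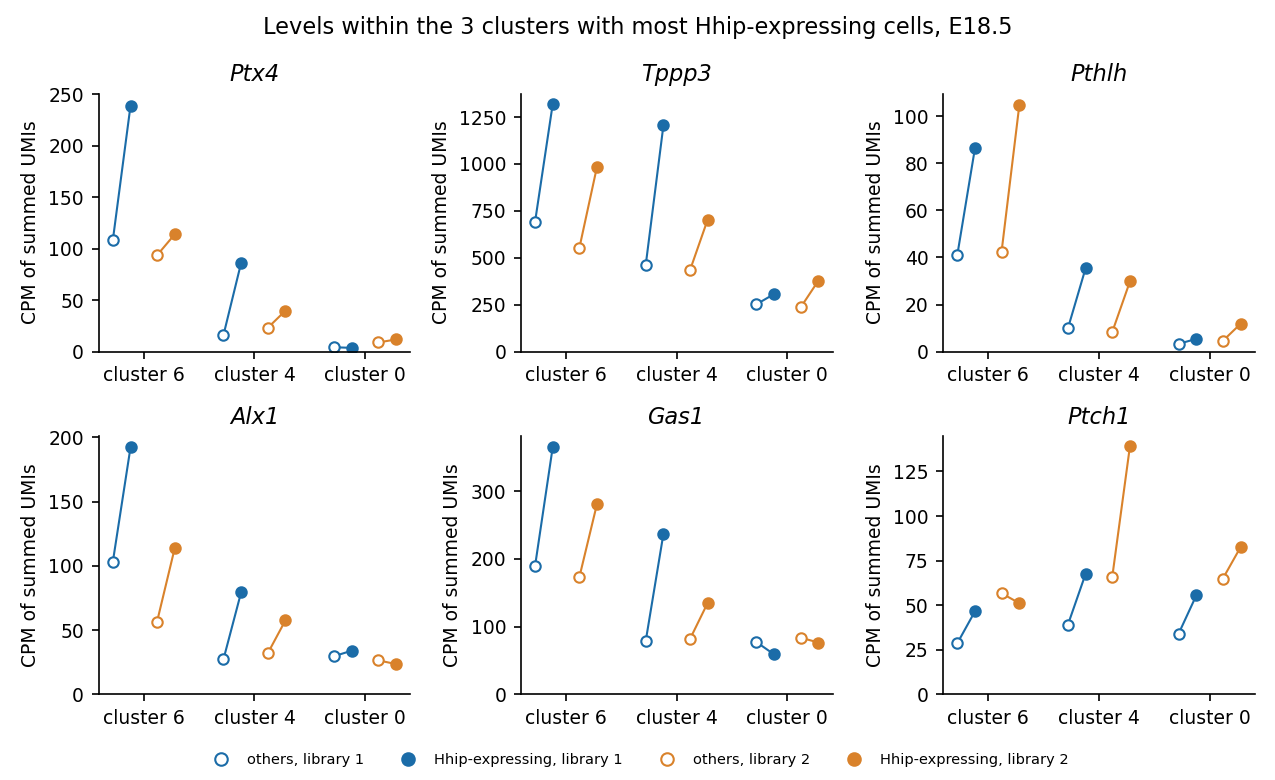
Levels (CPM of summed UMIs, y axis) of 6 genes in Hhip-expressing cells (filled circles) and other cells (open circles) of clusters 6, 4 and 0 (x axis), for library 1 and library 2. Tppp3, Pthlh, Alx1 and Gas1 were higher in Hhip-expressing cells of clusters 6 and 4 in both libraries, while Gas1 in cluster 0 lay at 59.1 against 77.4 and 76.7 against 83.9 CPM.

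Within the suture class, levels were also read by Hhip UMIs per cell, again as a description, because deeper cells hold more Hhip UMIs. Cells with 2 or more Hhip UMIs below the rate, 225 and 33 of all kept cells in libraries 1 and 2, were in none of the groups. The upper groups were thus cut by rate and the lower ones were not, so the groups are no full series of Hhip counts. Ptx4 in library 1 was at 4.42 CPM in cells with no Hhip UMI, 15.5 with 1, 58.3 in Hhip-expressing cells with 2 or 3, and 119 in those with 4 or more. In library 2 the order was the same, at 8.72, 30.5, 35.9 and 69.4 CPM. Erg followed the same order, from 15.2 to 67.8 CPM in library 1 and from 14.4 to 81.7 in library 2. Other genes did not follow it throughout. Pthlh in library 1 was at 18.7, 17.9, 67.3 and 44.0 CPM over the same 4 groups of cells, and Gas1 at 140, 108, 169 and 231 CPM. In library 2 both rose in order, Pthlh at 9.93, 16.8, 30.5 and 66.7 CPM and Gas1 at 105, 129, 138 and 188 CPM. Ibsp in library 2 was at 5415 CPM with no Hhip UMI and at 4614 in Hhip-expressing cells with 2 or 3, and at 490.0 in the 43 cells with 4 or more.

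After thinning to 5000 UMIs, Ptx4 was found in 31.6% of Hhip-expressing cells of library 1 (24.4 to 39.9) and 25.0% of library 2 (17.1 to 34.96), against 3.77% and 4.46% of other suture-class cells and 0% and 1.37% of macrophage- and osteoclast-like cells. Unthinned shares were 45.6% and 31.7% in Hhip-expressing cells. Tppp3 was found in 64.7% and 78.4%, against 30.6% and 44.9% of other suture-class cells, and its share in macrophage- and osteoclast-like cells was 17.3% and 21.9%. Ptch1 was found in 19.9% and 35.2% against 12.5% and 26.4%, and the intervals of the shares in library 2 overlapped (26.1 to 45.6 and 23.6 to 29.4).

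At E16.5, in libraries the rule did not use, depth per cell was lower and 1 Hhip UMI was taken as the minimum. There were 39 such cells of 497 in library 1 (7.85%) and 34 of 359 in library 2 (9.47%), of which 15 and 9 held 2 or more. Against all other kept cells 237 of 6264 genes were higher (3.78%) and 332 lower (5.3%), and 3.69% and 5.09% with the same sign in both libraries. Ptch1 was at 152 against 34.4 CPM in library 1 and 216 against 40.3 in library 2, a difference of 2.32 (SE 0.318, adjusted p = 5.37e-11). Gli1 was at 64.6 against 8.06 and 45.0 against 4.61 CPM, a difference of 3.10 (SE 0.613, adjusted p = 1.91e-05) that rests on 14 and 5 UMIs in the cells with Hhip. DESeq2 gave Gli1 no adjusted p. With 2 or more Hhip UMIs as the minimum, the adjusted p was 0.0539 for Ptch1 and 0.376 for Gli1.

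Of 16 suture mesenchyme genes tested at E16.5, 9 were higher, among them Lepr (2.52), Prrx2 (1.55), Alx1 (1.19) and Twist1 (0.83), and with 2 or more Hhip UMIs as the minimum 1 of 14 was higher. The osteoblast transcription factors Dlx5 (1.93), Sp7 (1.61) and Runx2 (1.49) were higher too. Most of these calls depended on the tool. DESeq2 gave an adjusted p to 11 of the 16 suture mesenchyme genes and to 5 of the 8 osteoblast transcription factors tested, and none of them passed (adjusted p 0.0986 for Lepr, 0.375 for Dlx5, 0.338 for Sp7 and 0.256 for Runx2), while Ptch1 did (adjusted p = 0.00839). Of the 20 genes that led at E18.5, only 5 were high enough to be tested at E16.5. Of these Dpt was lower (-3.10), which rests on 281 UMIs in other cells of library 1 and 1 in library 2, too few in library 2 to give a direction there. Tppp3 (-0.97), Ccdc91 (1.37), Baalc (1.47) and Prnp (-0.95) did not pass. Ptx4 had 3 and 0 UMIs in the cells with Hhip, and Pthlh 5 and 3, against 3 and 3 in the far more numerous other cells. Of 7 tested hypodermis and fascia markers 5 were lower, namely Pi16, Clec3b, Dpp4, Ly6a and Cd34, with a median of -2.71 over the 7. The summed list was at 434 against 1647 CPM in library 1 and 297 against 249 in library 2, and its part in the fall of Dpt was not tested. Cd34, which was higher at E18.5, was at 83.05 against 310 CPM in library 1 and 117 against 103 in library 2 (difference -1.13). Col15a1 (-4.67) and Cav1 (-2.84) were lower, and all 10 endothelial and all 13 macrophage markers were lower in the same comparison. For Col15a1 the cells with Hhip held 1 and 0 UMIs, too few for the size of its fall to be read.

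Cartilage genes were lower at E16.5 as at E18.5, at 9 of 14 tested with 0 higher, and with DESeq2 1 was lower. Of 8 mesenchyme genes that the study chose, 4 were higher (Sox6, Angptl2, Itgb5 and Col8a1) and Cd34 was lower, and 0 passed with DESeq2. Of 8 dura mater genes, 2 were lower (Nov and Fxyd5). Counts in other lists at E16.5 differed from those at E18.5. Against all other kept cells at E18.5, and with the stricter Hhip rule, 27 of 34 proliferation genes were higher and 0 lower. In that comparison 1 of 19 bone matrix and mineralization genes was higher and 16 lower. Of 17 collagens 4 were higher and 9 lower there, and Col6a1, Col6a2 and Col6a3 were higher at both ages. Of 31 proliferation genes tested at E16.5, 0 were higher and 3 lower (Bub1b, Ube2c and Tpx2). These counts are too near the shares over all genes, 3.78% and 5.3%, to give a direction. Their median was -0.56, and with DESeq2 0 of the 20 that had an adjusted p passed. Of 17 collagens at E16.5 10 were higher and 2 lower, and with DESeq2 1 was higher. The summed collagens were at 38088 against 35043 CPM in library 1 and 57933 against 27625 in library 2, a gap far wider in library 2. Of 12 bone matrix and mineralization genes 5 were higher (Alpl, Pth1r, Col1a1, Col1a2 and Sparc) and Spp1 was lower. With DESeq2 0 of 9 passed, and with 2 or more Hhip UMIs as the minimum 0 of 13 were higher and 2 lower. The summed bone matrix list was at 35089 against 32479 CPM in library 1 and 64807 against 30205 in library 2. Erythroid genes were higher in the same comparison, at 6 of 7 (4 with DESeq2), a median of 1.36, and a summed level of 9952 against 4480 CPM in library 1 and 17263 against 7010 in library 2. Their part in the other E16.5 values was not tested, nor was the difference between ages.

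The bulk libraries, separate samples that held 20133332 to 29099736 counts each, gave the place of these genes in the tissue. A bulk level cannot tell fewer cells of a type from less RNA per cell. SM was set against the mean of both OFs, and 822 of 19084 genes were higher (4.31%) and 1001 lower (5.25%) in SM. Hhip was at 326, 644, 470, 363 and 547 CPM in the 5 libraries of SM, at 283, 286, 385, 292 and 383 in the frontal OF and at 173, 167, 231, 202 and 230 in the parietal OF. The parietal OF lay below both other regions in every library. SM and the frontal OF overlapped as groups, and in each of the 5 replicate numbers SM was the higher of them. The difference for SM was 0.71 (SE 0.142, adjusted p = 0.00196).

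Hedgehog genes were not distributed alike. Ptch1 was lowest in SM, with 204 to 303 CPM there, 423 to 502 in the frontal OF and 643 to 762 in the parietal OF, and the 3 regions did not overlap (difference -1.25, SE 0.117, adjusted p = 4.63e-07). Gli1 was also lower in SM (-0.61, adjusted p = 0.0331), a call lost when any of 4 of the 5 replicates was left out (adjusted p from 0.0866 to 0.130). Gas1 was higher, at 74.9 ± 15.5 CPM in SM, 34.1 ± 10.7 in the frontal OF and 17.2 ± 3.55 in the parietal OF (SD, n = 5). Ihh was at 0.752 ± 0.516, 5.99 ± 2.93 and 13.7 ± 4.17 CPM, and the regions again did not overlap between SM and either OF. Boc (0.58) and Cdon (0.73) were higher in SM, and Boc lost its call without replicate 3, 4 or 5 (adjusted p 0.0617 to 0.140).

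Of the 20 genes that led among Hhip-expressing cells, 19 were tested in bulk, and 9 were higher in SM, namely Ptx4, Stxbp6, Dpt, Adgrg2, Pthlh, Erg, Ecm2, Prnp and Rnf165. Erg was at 387 ± 86.5 CPM in SM, 222 ± 57.7 in the frontal OF and 85.0 ± 22.6 in the parietal OF (SD, n = 5). Ptx4 was at 24.6 ± 6.36, 14.7 ± 2.74 and 4.78 ± 1.82 CPM. Dpt was at 136 ± 37.9, 134 ± 41.8 and 27.1 ± 15.1 CPM, so that SM and the frontal OF overlapped. Tppp3 was at 95.8 ± 39.8, 92.0 ± 39.4 and 115 ± 28.5 CPM and did not pass (adjusted p = 0.572).

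Col15a1 (1.16) and Cav1 (1.13) were also higher in SM, and 4 of 10 endothelial and 7 of 13 macrophage markers were higher there, whose part in those results was not tested. Of the 15 genes that fell furthest against suture-class cells, 10 were tested, and Phex (-4.27) and Vdr (-1.13) were lower and Fam198a higher. Phex was at 1.61 ± 1.10 CPM in SM, 15.3 ± 4.64 in the frontal OF and 49.4 ± 8.71 in the parietal OF. Of 35 proliferation genes, 0 were higher and 2 lower in SM, against 4.31% and 5.25% of all genes.

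**Figure D5:**
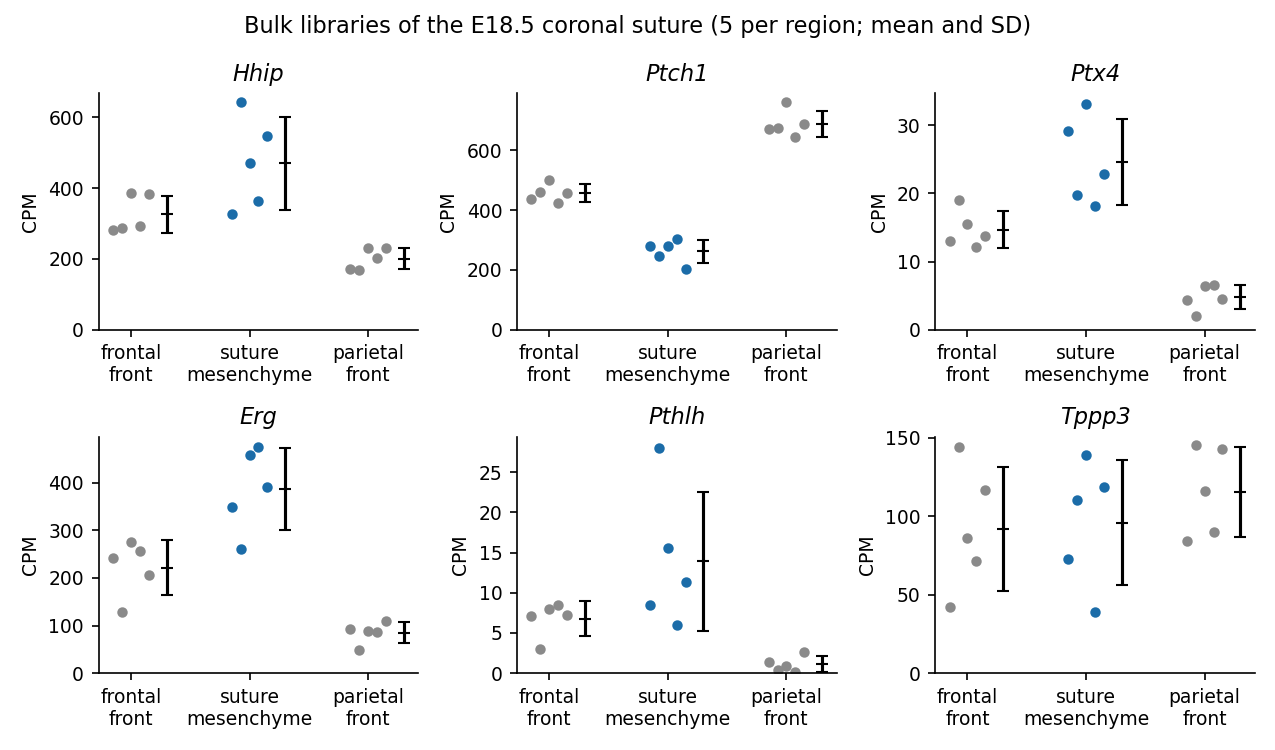
Level (CPM, y axis) of 6 genes in the bulk libraries of the frontal front, suture mesenchyme and parietal front (x axis) of the E18.5 coronal suture, 5 libraries per region as points, with the mean and SD beside them. Hhip, Ptx4, Erg and Pthlh had their highest mean in suture mesenchyme, Ptch1 had its lowest mean there, and Tppp3 overlapped in all 3 regions.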

How the data were processed

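Single-cell RNA-seq was deposited by the authors as a matrix of raw UMI counts per gene and barcode for each coronal library, made with Cell Ranger, and the authors analysed it with Seurat. Bulk RNA-seq was deposited as raw read counts per gene, which the authors made with cutadapt, STAR 2.5.3a (mm10) and featureCounts 1.6.4 without strand, so overlapping and antisense genes cannot be told apart. A further deposited table holds the authors' own log2 ratios between regions and was not used.

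Cells with over 800 detected genes were kept. All kept cells were clustered without Hhip (2000 variable genes, 13 components, 100 neighbours, Leiden resolution 0.8), and suture-class cells again (15 components, 50 neighbours). Clusters were named from marker lists, and those whose leading genes went against a name stayed unnamed. No cell was removed as a doublet in the values reported, and leaving out doublet-like cells was an alternative. Since cells are not replicates, counts were summed per library and tested in R 4.3.3 with edgeR 4.0.16 (quasi-likelihood, TMM, two-sided, Benjamini-Hochberg over all genes tested), with the library as a block because both sums of a library share 1 pool and 1 run. Genes needed a mean of 5 CPM at E18.5 and 20 CPM at E16.5, and in bulk 1 CPM in over 10% of libraries. In bulk, p-values thus measure the spread between libraries. In the single-cell tests the block takes out differences in level between libraries and leaves 1 residual degree of freedom. That degree of freedom holds how far the libraries disagree on the difference between Hhip-expressing and other cells. Those p-values rest largely on count noise and on variance shared across genes, so for a single gene they measure agreement between libraries only weakly. DESeq2 1.42.0 and limma 3.58.1 were alternatives, and the tests were checked on simulated data. Intervals of shares are Wilson intervals at 95%, and the upper limit for a count of 0 is 3 counts of the total.

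Total UMIs of kept cells were 60972673 and 15387472 in the E18.5 libraries and 1582309 and 978695 at E16.5, so that rare transcripts were read best in library 1 of E18.5. Bulk libraries with the same number carried the same litter identifier in the labels, a different one for each number, which is where the pairing comes from. The residuals of 15 such pairs correlated with a median of 0.0503 (from -0.0925 to 0.260), against -0.0075 for other pairs, and the number as a replicate block was fitted as an alternative. Second libraries with the same region and number were added to the first in another alternative.

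Named genes were, among those past the threshold with the same sign in both libraries, the 20 largest rises (at least 20 UMIs in the Hhip-expressing cells of each library) and 8 largest falls (at least 50 UMIs in the other cells of each) against all kept cells, and the 15 of each against suture-class cells. Mitochondrial, ribosomal-protein and haemoglobin genes were not named. One item is not reported here. From 29 gene lists up to 4 genes were named first by p-value, with further genes named after their values were seen, and all hedgehog genes. The rule for the cells, the gene lists and the tests were chosen with earlier results of these data known. The removal of the proliferating cluster was added after the data were seen.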

Additional observations from a re-analysis of the deposited data

Results flagged for a closer look

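In 57 groups of 5 bulk libraries that were checked for a library far from the rest, 3 groups held one, where chance gives about 1 in 20. Ecm2 in SM had a lowest value of 152.6 CPM, while the other 4 libraries lay between 194 and 200 CPM. Pthlh in the frontal OF had a lowest value of 3.00 CPM, and Vdr in the frontal OF had a highest value of 9.03 CPM.

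Between ages, 4 of the named and hedgehog genes had computed ratios of 1 sign in both libraries of E18.5 and of the opposite sign in both of E16.5, although for Dpt the sign in library 2 of E16.5 cannot be read as a direction. Tppp3 (2.01 at E18.5, -0.97 at E16.5) and Cd34 (0.90, -1.13) also turned in the fit, but their ratios in the libraries of E16.5 differed in sign. The fitted log2 difference between Hhip-expressing and all other kept cells was 2.08 for Dpt at E18.5 and -3.10 at E16.5. For Prnp it was 1.42 and -0.95, for Col15a1 0.93 and -4.67, and for Cav1 0.54 and -2.84. For Dpt library 2 of E16.5 held 0 UMIs in cells with Hhip and 1 in other cells, and for Col15a1 the cells with Hhip held 1 and 0 UMIs. The difference between ages was not tested, and Prnp did not pass at E16.5. Age, kit, sequencer, red blood cell lysis, hypodermis left in the strips and the minimum of Hhip UMIs changed together and cannot be told apart. In the E16.5 comparison all 10 endothelial markers and 5 of 7 hypodermis and fascia markers were lower as well, and their part in these values was not tested.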

How the results depend on the processing

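The counts of called genes depended strongly on the test. The genes named by rule were chosen for large effects of the same sign in both libraries, so their steady directions are no separate check. Against all other kept cells, 684 genes were higher and 1064 lower, and the counts were 201 and 430 with DESeq2 and 14 and 64 with no replicate block. Against suture-class cells, 573 and 804 became 162 and 241 with DESeq2, 0 and 0 with no replicate block (360 and 519 at an unadjusted p under 0.05), and 314 and 490 with at least 3 Hhip UMIs, while 339 were higher without the proliferating cluster. At E16.5, 237 and 332 became 16 and 22 with DESeq2, 37 and 92 with no replicate block, and 36 and 107 with at least 2 Hhip UMIs, and 129 were higher with no filter on low values. The cause of these shifts was not tested. In bulk, 822 and 1001 became 953 and 1142 with the number as a replicate block, and 486 to 696 and 588 to 873 when 1 replicate was left out, lowest without replicate 3. Of 70 called bulk genes followed here, 3 lost their calls with that block, and 6 to 16 when 1 replicate was left out. Without replicate 5, 658 were lower.

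All 28 genes named against all kept cells kept their calls with DESeq2, and 15 of the 28 kept them with no replicate block. Of the 30 named against suture-class cells, 30 kept their calls with DESeq2 and none with no replicate block.

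At E16.5, of 42 called genes named here that had an adjusted p with DESeq2, 9 kept their calls and 33 lost them.

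Some single genes turned. Against all kept cells without the proliferating cluster, Top2a was at -1.43, Cenpf at -1.65, Ccnb2 at -0.34 and Ube2c at -1.33, and without replicate 1 Fgf18 was at 0.063. Against suture-class cells without the proliferating cluster, Ube2c was at -0.12, Top2a at -0.49 and Birc5 at -0.12. With at least 1 Hhip UMI, Gas1 was at -0.11, Alx1 at -0.082, Runx2 at 0.0087, Fosl2 at 0.0052 and Notch3 at 0.22. At E16.5 with at least 2 Hhip UMIs, Col1a1 was at -0.40, Col1a2 at -0.43, Sparc at -0.36 and Ogn at -0.12, and Itih5 ranged from -3.87 without replicate 2 to 1.84 without replicate 1 and Spp1 from -3.99 to 0.37. Library 2 at E18.5 and both E16.5 libraries were shallow, so values that rest on a few UMIs are imprecise there. Thinning to 3500 instead of 5000 UMIs left out none of the cells compared. It took 18 of 92 shares of Hhip-expressing cells with a UMI of a named gene outside their interval, among them Ptx4, at 23.5% in library 1 and 16.3% in library 2 (against 2.86% and 3.56% of other suture-class cells), and Tppp3, at 65.4% in library 2.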
